A study of Rattus norvegicus with 83 samples.

Results

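Blood vessel endothelium was followed through 10 genes, Kdr, Flt1, Tek, Pecam1, Cdh5, Cldn5, Esam, Plvap, Emcn and Egfl7, chosen by symbol from the 17483 symbols of the deposited count table. All 10 are in the table. They fall into 3 receptors, 4 cell-cell junction genes, 1 gene of fenestrae and 2 others, and 9 of the 10 had enough counts to be tested. The libraries are BRB-seq libraries (bulk RNA barcoding, in which polyadenylated RNA of many samples is barcoded and sequenced together) from offspring of Sprague-Dawley rat dams dosed daily by gavage. Methimazole (MMI) and amitrole (Ami) both inhibit thyroid peroxidase, the enzyme that makes thyroid hormone, and each was given at a low and a high dose. At PD16 (pup day 16) there were 10 libraries from offspring of dams given 8 mg/kg bw/day methimazole (MMI8), 10 for 16 mg/kg (MMI16), 11 for amitrole at 25 mg/kg (Ami25), 12 for amitrole at 50 mg/kg (Ami50) and 10 for the corn oil vehicle. At GD21 (gestational day 21) each of the same 5 groups had 6 libraries. Dosing began on gestational day 7, birth was expected on gestational day 23, and no group was left undosed. The labels do not say which libraries share a litter, and p-values here describe variation among libraries, not among litters.

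Several features of the libraries bear on every result. The tissue label is testis, but 11 testis genes together had 637 of 57573311 counts, 390 of them from Gata1, which red cell precursors also use, and Sohlh1 and Dmrt1 were at 0. The 6 adrenal cortex genes (Cyp21a1, Cyp11a1, Cyp11b1, Cyp11b2, Star and Mc2r) instead summed to at least 7610 CPM (counts scaled to the library's total count) in every library. Embryonic globins made up a median of 16.1% of globin counts in PD16 MMI8 libraries, 16.8% in MMI16, 0.180% in Ami25, 0.130% in Ami50 and 14.1% in PD16 vehicle libraries, against medians between 0.110% and 0.168% in the GD21 groups. The PD16 amitrole libraries therefore had the globin make-up of the GD21 libraries, and the PD16 methimazole and vehicle libraries did not. The high embryonic share was thus in libraries labelled with the later stage. These include the vehicle libraries used in every PD16 comparison with vehicle. Which stage labels are right cannot be told from these values. At PD16, 8 of the 12 Ami50 libraries had the Y-linked gene Eif2s3y under 10 CPM, while every other library had at least 43.3 CPM. Total counts ran between 202270 and 1186973 at PD16 (median 492083) and between 495369 and 1627114 at GD21 (median 963356), so that 1 count was worth 2.03 CPM and 1.04 CPM at those medians. Library depth limits the low members, and intervals cover the spread between libraries only.

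Endothelial cells line blood vessels. Growth and survival of the lining depend on VEGF acting on the receptor tyrosine kinases encoded by Kdr (VEGFR2, the main signalling receptor) and Flt1 (VEGFR1, which also binds and sequesters VEGF), and on angiopoietins acting on Tek (Tie2). The cells are held together by Cdh5 (VE-cadherin) at adherens junctions, Cldn5 (claudin-5) at tight junctions, Esam, an adhesion molecule of the tight junction, and Pecam1 (CD31), a lateral adhesion molecule that platelets and leukocytes also carry. Plvap forms the diaphragms of fenestrae and caveolae, and is typical of the fenestrated capillaries of endocrine glands. Emcn (endomucin) is a surface sialomucin of capillaries and veins, and Egfl7 is a protein that endothelial cells secrete into the matrix.

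At PD16, Kdr and Pecam1 fell in all 4 dosed groups, and Emcn, Cldn5 and Plvap also fell in both amitrole groups. Calls rest on edgeR's quasi-likelihood test with Benjamini-Hochberg adjustment over the 4906 genes tested at that stage, at an adjusted p under 0.05. Of the 9 members tested, 2 fell and none rose in MMI8, where 6.89% of all genes fell and 1.47% rose, and in MMI16, where 7.26% of all genes fell and 0.856% rose. In Ami25, 5 fell and none rose, where 27.5% of all genes fell and 27.9% rose. In Ami50 again 5 fell and none rose, where 26.5% of all genes fell and 27.1% rose. The median log2 fold change over the 9 members was -0.23 in MMI8, -0.20 in MMI16, -0.85 in Ami25 and -0.93 in Ami50, beside 0.01, 0.07, 0.01 and 0.02 over all genes in the same 4 comparisons, which share their vehicle libraries. Receptor, junction and fenestration genes did not form blocks. Of 3 receptors only Kdr was called, of 3 junction genes tested only Pecam1 was called in the methimazole groups and Pecam1 and Cldn5 in the amitrole groups, and Plvap was called in the amitrole groups but did not pass the test between Ami50 and MMI16. Flt1, Tek, Esam and Egfl7 were called in none of the 4 dosed groups. Less RNA per endothelial cell, fewer endothelial cells and a change in other cells with the same transcripts cannot be told apart in bulk libraries.

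**Figure D1:**
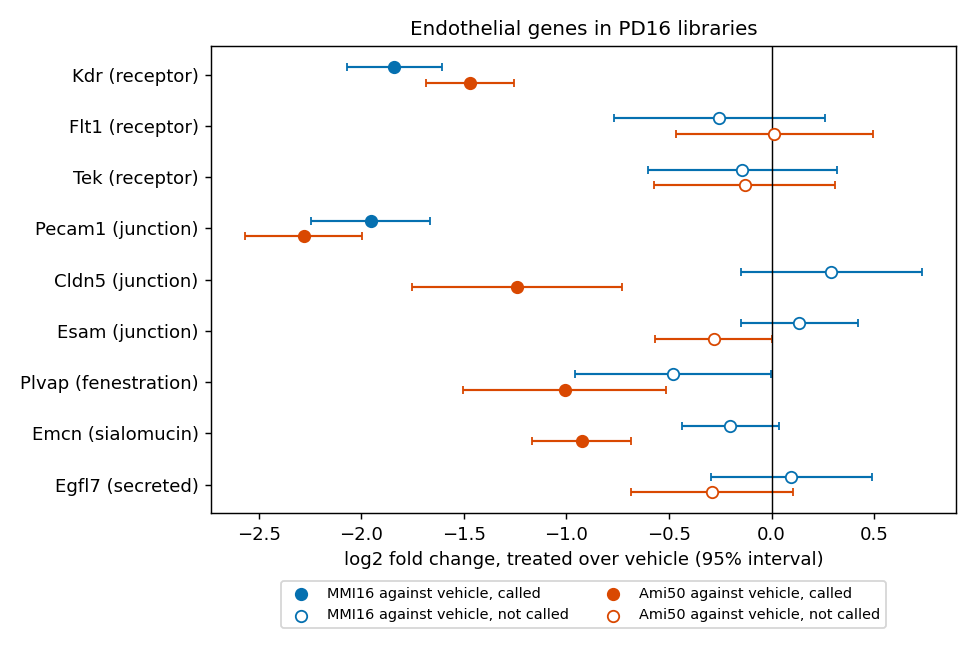
Log2 fold change of 9 endothelial genes at PD16 in MMI16 (blue) and Ami50 (orange) over vehicle, with 95% intervals from edgeR's quasi-likelihood fit; filled points were called at an adjusted p under 0.05. Kdr and Pecam1 lie far below 0 for both compounds, Cldn5, Plvap and Emcn are filled for Ami50 only, and Flt1, Tek, Esam and Egfl7 are open throughout.

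The promoters of 4 of the 5 genes that fell are shown. Kdr was called in all 4 dosed groups, and Emcn, Cldn5 and Plvap in the amitrole groups only. They were taken from RefSeq (build GRCr8, whereas the counts rest on rn6), which gave an entry for 6 of the 10 members. Each sequence holds 250 bases before and 50 bases after the start, 5′ to 3′ on the gene's strand, and capitals mark GGAA or its reverse complement TTCC, the core recognised by ETS transcription factors, a family used widely in endothelial genes.
Kdr: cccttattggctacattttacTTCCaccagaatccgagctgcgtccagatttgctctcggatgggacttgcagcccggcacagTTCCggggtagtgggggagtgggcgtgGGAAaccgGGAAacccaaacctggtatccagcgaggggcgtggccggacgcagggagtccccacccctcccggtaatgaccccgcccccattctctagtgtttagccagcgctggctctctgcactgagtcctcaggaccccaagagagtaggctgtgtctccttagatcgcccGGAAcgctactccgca
Emcn: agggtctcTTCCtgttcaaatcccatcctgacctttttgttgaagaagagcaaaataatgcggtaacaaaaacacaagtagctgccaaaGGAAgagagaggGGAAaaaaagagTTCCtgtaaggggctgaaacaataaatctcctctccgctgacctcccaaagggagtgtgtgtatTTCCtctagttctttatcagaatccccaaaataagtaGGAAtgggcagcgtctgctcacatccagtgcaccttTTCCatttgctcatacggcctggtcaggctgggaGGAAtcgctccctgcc
Cldn5: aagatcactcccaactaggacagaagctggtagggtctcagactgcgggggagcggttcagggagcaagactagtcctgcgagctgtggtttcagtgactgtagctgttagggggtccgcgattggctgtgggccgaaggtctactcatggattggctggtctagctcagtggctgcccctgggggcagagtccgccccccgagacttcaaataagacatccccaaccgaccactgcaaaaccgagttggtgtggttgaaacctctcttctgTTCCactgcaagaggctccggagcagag
Plvap: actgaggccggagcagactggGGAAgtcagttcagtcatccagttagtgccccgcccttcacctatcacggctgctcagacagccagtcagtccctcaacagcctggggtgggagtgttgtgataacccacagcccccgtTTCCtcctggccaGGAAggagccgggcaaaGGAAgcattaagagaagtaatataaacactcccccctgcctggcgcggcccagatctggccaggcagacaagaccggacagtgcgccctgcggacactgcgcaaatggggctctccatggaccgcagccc
The Kdr window is chr14:32571813-32572112 (plus strand), the Emcn window chr2:228564289-228564588 (plus strand), the Cldn5 window chr11:95718549-95718848 (minus strand) and the Plvap window chr16:18231230-18231529 (minus strand). GGAA, searched on both strands, occurred 5 times for Kdr, 8 times for Emcn, 1 time for Cldn5 and 4 times for Plvap. Of 33469 promoter windows of 300 bases, 95.8% held at least 1 copy (median 3), 29.2% held at least as many as Kdr, 3.90% as many as Emcn and 46.8% as many as Plvap. The GC box GGGCGG, which shared no base with a GGAA match, occurred 1 time each for Kdr, Cldn5 and Plvap and was not found for Emcn, and 33.1% of all windows held it. GC content was 61.0% for Kdr and Plvap, 57.7% for Cldn5 and 47.0% for Emcn, beside a median of 51.7%. Kdr, which fell in all 4 dosed groups, and Plvap, which fell in the amitrole groups, were alike in these counts, and Emcn and Cldn5, which also fell in the amitrole groups, lay at opposite ends of the GGAA range. Flt1 and Egfl7, called in none of these groups, held GGAA 3 times for Flt1 and 4 and 2 times in separate windows for Egfl7.

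Among the receptors, Kdr was lower in every dosed group at PD16. Its lowest, median and highest values were 65.9, 117 and 157 CPM in MMI8 libraries, 49.7, 81.5 and 153 CPM in MMI16, 67.1, 90.4 and 122 CPM in Ami25 and 65.1, 99.4 and 142 CPM in Ami50, against 221, 291 and 332 CPM in vehicle libraries. Every dosed library lay below every vehicle library. Means were 113 ± 27.6 CPM (SD, n = 10) in MMI8, 85.8 ± 29.3 CPM (n = 10) in MMI16, 91.7 ± 14.4 CPM (n = 11) in Ami25 and 98.5 ± 21.5 CPM (n = 12) in Ami50, against 286 ± 35.6 CPM (n = 10) in vehicle. The log2 fold change was -1.38 (SE 0.11, adjusted p = 7.98e-16) in MMI8 and -1.84 (SE 0.12, adjusted p = 7.39e-21) in MMI16. In Ami25 it was -1.60 (SE 0.11, adjusted p = 1.45e-19) and in Ami50 -1.47 (SE 0.11, adjusted p = 1.11e-18).

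Flt1 and Tek, the receptors beside Kdr, were called in none of the 4 comparisons with vehicle. Mean Flt1 was 18.1, 19.3, 24.5 and 19.9 CPM in MMI8, MMI16, Ami25 and Ami50 libraries and 20.0 CPM in vehicle libraries. In Ami50 the Flt1 interval ran between -0.47 and 0.49 on the log2 scale, which does not reach the Kdr change. Tek averaged 18.9, 17.7, 22.7 and 16.5 CPM in the same dosed groups and 19.2 CPM in vehicle, and its Ami50 interval ran between -0.57 and 0.31. Both rest on few counts, with medians between 6 and 12.5 counts a library for Flt1 and between 8 and 12 for Tek at PD16, so a change smaller than about these intervals was not detectable at this depth.

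**Figure D2:**
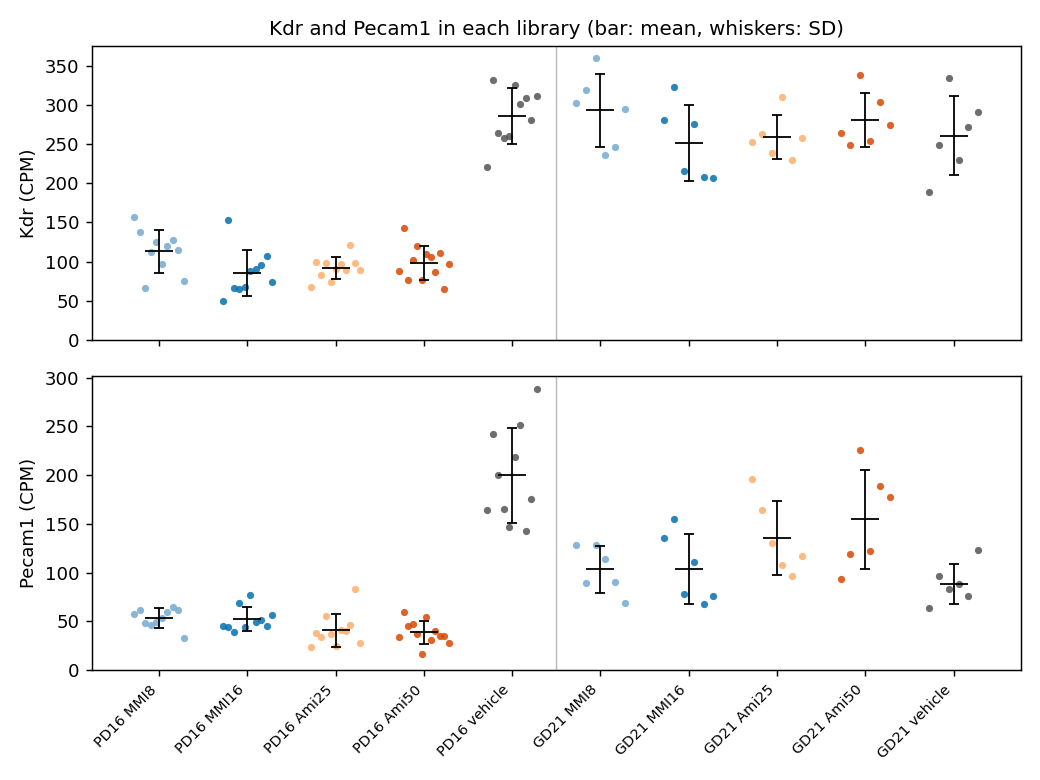
Kdr (top) and Pecam1 (bottom) in CPM in each of the 83 libraries, dosed groups left of vehicle and PD16 left of GD21; bars are group means and whiskers SD. At PD16 every dosed library lies below every vehicle library for both genes, and at GD21 Kdr overlaps in all 5 groups.

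Of the junction genes, Pecam1 had the largest fall of the members in each dosed group at PD16. Lowest, median and highest values were 32.3, 55.2 and 64.9 CPM in MMI8, 38.6, 46.8 and 77.0 CPM in MMI16, 23.2, 38.1 and 83.4 CPM in Ami25 and 16.2, 35.7 and 59.9 CPM in Ami50, against 143, 188 and 288 CPM in vehicle. Again no dosed library reached the lowest vehicle library. The log2 fold change was -1.92 (SE 0.15, adjusted p = 6.84e-17) in MMI8, -1.96 (SE 0.15, adjusted p = 7.48e-18) in MMI16, -2.30 (SE 0.15, adjusted p = 4.81e-21) in Ami25 and -2.28 (SE 0.14, adjusted p = 1.79e-21) in Ami50. Those are falls of 3.79, 3.88, 4.91 and 4.86 fold. Over all genes, 3.06% in MMI8, 3.83% in MMI16, 8.74% in Ami25 and 8.76% in Ami50 had every dosed library below every vehicle library, as Kdr and Pecam1 did in all 4 groups and Emcn in both amitrole groups.

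Cldn5 was called lower in both amitrole groups and in neither methimazole group. Its lowest, median and highest values were 16.3, 28.2 and 45.2 CPM in MMI8, 20.7, 44.8 and 79.1 CPM in MMI16, 9.10, 11.6 and 75.8 CPM in Ami25 and 1.36, 12.6 and 30.0 CPM in Ami50, against 22.8, 33.9 and 50.1 CPM in vehicle. The fold change was -0.85 on the log2 scale in Ami25 (SE 0.25, adjusted p = 0.00302) and -1.24 in Ami50 (SE 0.26, adjusted p = 3.91e-05), with 10 of 11 and 12 of 12 libraries below the vehicle mean. It was -0.33 in MMI8 (adjusted p = 0.600) and 0.29 in MMI16 (adjusted p = 0.613), with 9 of 10 and 3 of 10 libraries below the vehicle mean. The Ami25 library at 75.8 CPM was the only one of that group above the vehicle mean. Among libraries numbered 57 and above, the difference in mean log2 CPM was 0.22 for Ami25, while it was -1.67 for numbers up to 20 and -1.21 for numbers 21 to 40.

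Esam, of the tight junction, averaged 69.4, 68.2, 52.3 and 48.5 CPM in MMI8, MMI16, Ami25 and Ami50 and 62.2 CPM in vehicle, and was called in none of these groups. Its Ami50 value was -0.28 (SE 0.14, adjusted p = 0.0887), with 11 of 12 libraries below the vehicle mean. Cdh5, the defining adhesion molecule of endothelium, had between 0 and 9 counts in any library and failed the filter on low counts in every fit that had one. Its PD16 counts summed to 11 over 10 MMI8 libraries, 28 over 10 MMI16, 15 over 11 Ami25 and 20 over 12 Ami50, against 24 over 10 vehicle libraries. At GD21 its counts summed to 16, 15, 6 and 13 in MMI8, MMI16, Ami25 and Ami50, against 24 in vehicle, over 6 libraries each. No difference in Cdh5 was detectable at this depth.

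Plvap, the gene of fenestral diaphragms, fell in both amitrole groups. Lowest, median and highest values were 14.6, 19.7 and 39.5 CPM in MMI8, 10.1, 16.1 and 69.2 CPM in MMI16, 2.22, 10.3 and 21.9 CPM in Ami25 and 4.97, 11.5 and 19.3 CPM in Ami50, against 11.8, 25.7 and 43.0 CPM in vehicle. The amitrole and vehicle ranges overlapped, although all 11 Ami25 and all 12 Ami50 libraries lay below the vehicle mean of 26.9 CPM. The log2 fold change was -1.10 in Ami25 (SE 0.25, adjusted p = 0.000198) and -1.01 in Ami50 (SE 0.25, adjusted p = 0.000425), where Plvap did not pass the filter on low counts if only the Ami50 and vehicle libraries were fitted. It was -0.25 in MMI8 (adjusted p = 0.721) and -0.48 in MMI16 (interval -0.96 to -0.00079, adjusted p = 0.315), neither called.

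Emcn, the sialomucin, fell in the amitrole groups with no overlap with vehicle. It ran between 34.2 and 68.2 CPM (median 48.8) in Ami25 and between 34.3 and 72.4 CPM (median 43.0) in Ami50, against 79.4 to 119 CPM (median 87.1) in vehicle. The log2 fold change was -0.85 (SE 0.12, adjusted p = 1.86e-08) in Ami25 and -0.93 (SE 0.12, adjusted p = 1.48e-09) in Ami50. The methimazole groups averaged 81.2 ± 20.4 CPM (MMI8, SD, n = 10) and 81.2 ± 12.5 CPM (MMI16, n = 10), against 91.3 ± 13.8 CPM (n = 10) in vehicle, and were not called. Egfl7, the secreted factor, averaged 25.3, 24.7, 20.9 and 16.4 CPM in MMI8, MMI16, Ami25 and Ami50 and 22.7 CPM in vehicle, with no call.

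**Figure D3:**
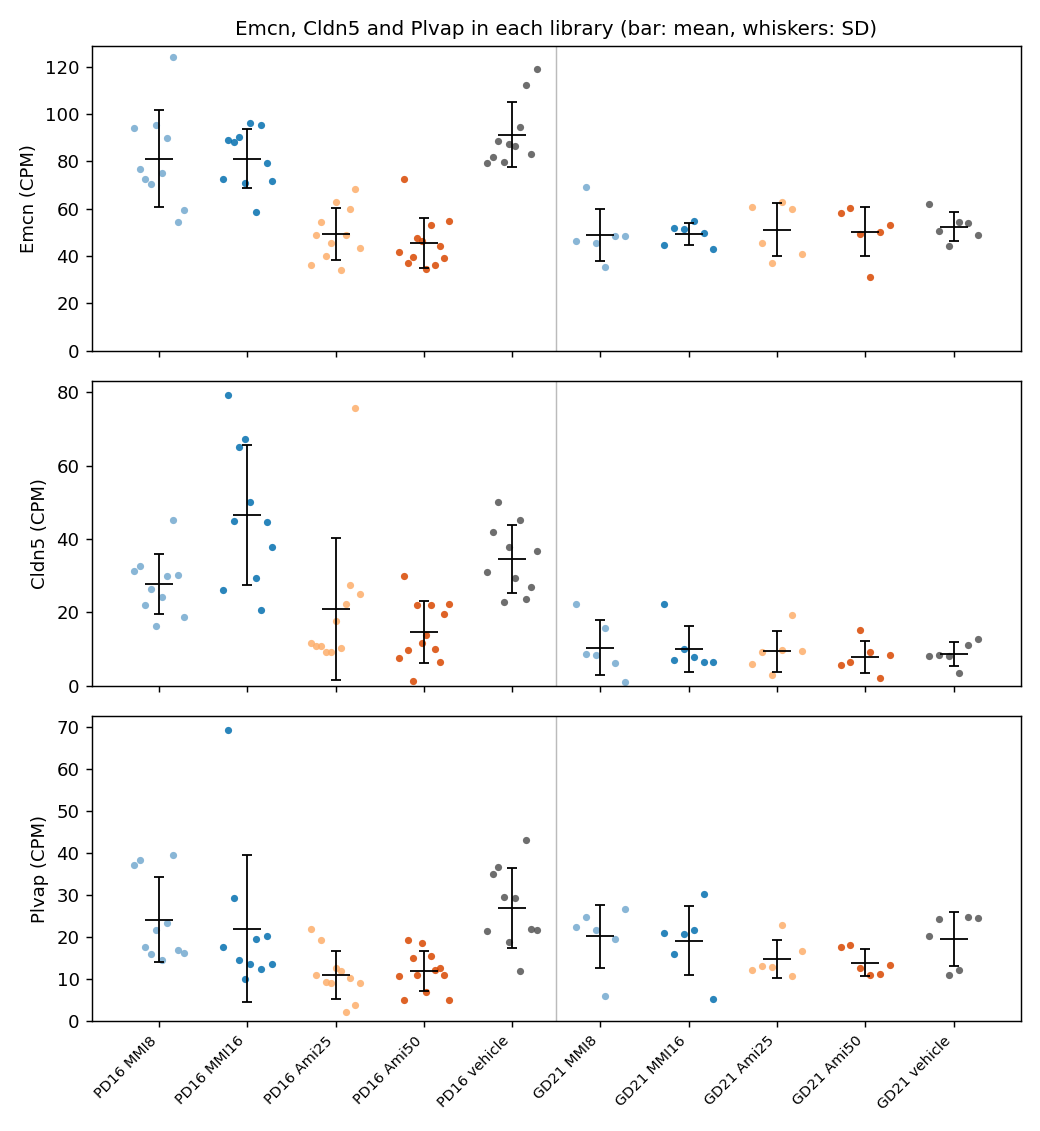
Emcn, Cldn5 and Plvap in CPM in each of the 83 libraries, dosed groups left of vehicle and PD16 left of GD21; bars are group means and whiskers SD. At PD16 the Ami25 and Ami50 libraries lie below vehicle for Emcn without overlap and mostly in the range of the GD21 libraries, Cldn5 has 1 Ami25 library at 75.8 CPM, and Plvap has 1 MMI16 library at 69.2 CPM.

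Transcripts of other cell types moved with the amitrole groups at PD16, and their part in the falls of Emcn, Cldn5 and Plvap was not tested. All 3 tested lymphatic endothelial genes of 6 listed (Lyve1, Ccl21 and Reln) rose in Ami25 and in Ami50, where Ccl21 changed by 3.46 on the log2 scale (adjusted p = 6.94e-10 in edgeR's test). Over all genes, 27.9% rose and 27.5% fell in Ami25, and 27.1% rose and 26.5% fell in Ami50. The lymphatic list summed to between 118 and 363 CPM in Ami25 and between 104 and 504 CPM in Ami50, against 51.3 to 90.7 CPM in vehicle, with Prox1, Pdpn and Flt4 too low to test and Flt4 at 0 in Ami25. Of pericyte and smooth muscle genes 1 of 3 tested (10 listed), Tagln, rose in Ami50, and the list summed to 92.0 to 271 CPM against 60.2 to 97.8 CPM in vehicle. Adrenal cortex genes rose (5 of 5 tested in Ami50) and summed to 21551 to 58863 CPM in Ami50 and 12614 to 19643 CPM in vehicle. Of 6 adrenal medulla genes, Pnmt, Chga and Ddc were higher and Dbh and Chgb lower in Ami50, and the list summed to 1052 to 1642 CPM in Ami50 and 736 to 969 CPM in vehicle, with no overlap. Macrophage genes (5 higher and 1 lower of 6 tested) summed to 167 to 407 CPM in Ami50 and 150.1 to 191 CPM in vehicle, and red cell genes (7 higher and 3 lower of 10) to 66085 to 125344 CPM in Ami50 and 29930 to 43246 CPM in vehicle. In MMI16, where Kdr and Pecam1 fell as well, none of the lymphatic, pericyte, adrenal cortex or red cell genes tested was called, while 1 of 6 adrenal medulla genes (Ddc, -0.47, adjusted p = 0.0369 in edgeR's test) and 1 of 6 macrophage genes (Mrc1) were lower. The adrenal medulla list summed to 714 to 1374 CPM in MMI16, which overlapped vehicle. The macrophage list summed to 72.2 to 129 CPM in MMI16 and to 78.9 to 134 CPM in MMI8, both below the vehicle range. In MMI8, 1 of 6 macrophage genes tested was lower as well. The part of the macrophage list in the falls of Kdr and Pecam1 was not tested.

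The 5 falls in Ami50 remained without the libraries low in Eif2s3y or high in Alb. Neither removal touches the globin make-up, which was 0.0473% to 0.368% embryonic in Ami50 and 11.6% to 19.4% in vehicle libraries. Without the 8 Ami50 libraries low in Eif2s3y, only libraries 17, 18, 19 and 20 were left in Ami50. The log2 fold change was then -1.40 for Kdr, -2.01 for Pecam1, -0.88 for Emcn, -1.63 for Cldn5 and -0.94 for Plvap, with a highest adjusted p of 0.0224 in edgeR's test. Liver genes rose in Ami50 (5 of 5 tested of 8 listed) and summed to 69.9 to 10150 CPM in Ami50 and 56.9 to 332 CPM in vehicle. Without the libraries in which Alb reached 200 CPM, the Ami50 values were -1.38 for Kdr, -2.26 for Pecam1, -0.89 for Emcn, -1.34 for Cldn5 and -1.0 for Plvap, with a highest adjusted p of 0.00141.

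Ratios of counts within a library do not depend on how libraries are scaled, and they showed unequal movement in some pairs and groups and not in others. They use the same counts as the tests above. The log2 ratio of Plvap to Kdr, with 0.5 added to each count, averaged -2.23 ± 0.40 (SD, n = 10) in MMI8 and -2.07 ± 0.62 (n = 10) in MMI16, against -3.44 ± 0.52 (n = 10) in vehicle. The differences of 1.21 and 1.37 had permutation p = 2e-05, the smallest that 100000 resamples give, and p = 4e-05 (adjusted p = 0.00048 for both over 36 tests, two-sided). In Ami25 and Ami50 the ratio averaged -3.10 ± 0.87 (n = 11) and -3.01 ± 0.77 (n = 12), and the differences with vehicle of 0.35 and 0.43 were not past the threshold (permutation, adjusted p = 0.366 and 0.225). Plvap to Pecam1 differed with vehicle by 1.71 in MMI8, 1.5 in MMI16 and 1.25 in Ami50 (permutation, adjusted p = 0.00048, 0.000576 and 0.00596), and by 1.02 in Ami25 (adjusted p = 0.0582).

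Pecam1 relative to Kdr was lower in 3 of the 4 dosed groups. The log2 ratio was -1.05 ± 0.29 (SD, n = 10) in MMI8, -0.68 ± 0.55 (n = 10) in MMI16, -1.22 ± 0.43 (n = 11) in Ami25 and -1.37 ± 0.43 (n = 12) in Ami50, against -0.55 ± 0.29 (n = 10) in vehicle. The difference was -0.50 in MMI8, -0.67 in Ami25 and -0.82 in Ami50 (permutation, adjusted p = 0.00596, 0.00453 and 0.000576), and -0.13 in MMI16 (adjusted p = 0.607). Cdh5 to Kdr differed with vehicle by 2.16 in MMI16, 1.41 in Ami25 and 1.37 in Ami50 (permutation, adjusted p = 0.00596, 0.00596 and 0.0116), but with so few Cdh5 counts the size of this ratio depends on the count added. Median Cdh5 counts were between 1 and 2.5 a library in the PD16 groups. The ratio was therefore set mostly by Kdr, and its tests say little about Cdh5.

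**Figure D4:**
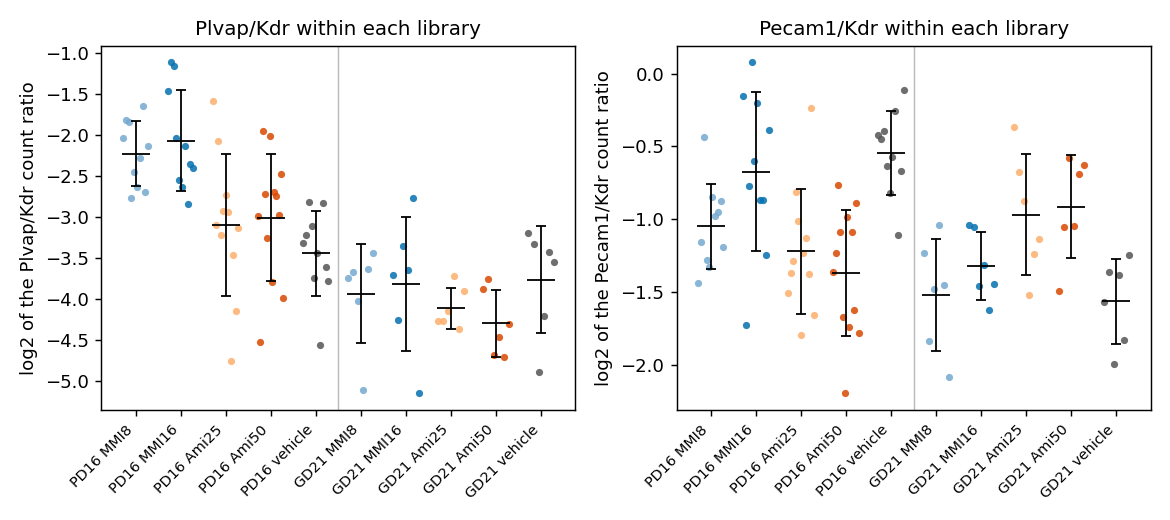
Log2 ratio of Plvap to Kdr (left) and of Pecam1 to Kdr (right) counts in each library, with 0.5 added to each count; bars are group means and whiskers SD. Plvap to Kdr is higher in the PD16 methimazole groups (means -2.23 and -2.07) than in PD16 vehicle (-3.44), and Pecam1 to Kdr is higher in PD16 vehicle (-0.55) than in GD21 vehicle (-1.57).

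Dose and compound were compared directly at PD16. Kdr was lower in MMI16 than in MMI8, at -0.46 on the log2 scale (SE 0.13, adjusted p = 0.035 in edgeR's test), and was the 1 member called of 9 (1.9% of all genes fell). That call was lost under 3 of 11 other settings, with adjusted p up to 0.179. No member was called between Ami50 and Ami25, where edgeR called 0.0% of all genes (230 genes were at an unadjusted p under 0.05, and DESeq2 called 0). There the Kdr interval ran between -0.10 and 0.36 and the Pecam1 interval between -0.33 and 0.36. Between Ami50 and MMI16, the high doses, Kdr was higher in Ami50 by 0.37 (adjusted p = 0.0105), while Cldn5, Emcn and Esam were lower in Ami50, by log2 fold changes of -1.53 (adjusted p = 1.3e-06), -0.72 (adjusted p = 2.45e-06) and -0.42 (adjusted p = 0.0139), all in edgeR's test. These are 1 member higher and 3 lower of 9, where 22.6% of all genes were higher and 24.9% lower. Pecam1 (-0.33, adjusted p = 0.107) and Plvap (-0.53, adjusted p = 0.106) were not called between the compounds.

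At GD21 no member was called in any dosed group against vehicle, and edgeR called 0.0% of the 6236 genes tested in each. At an unadjusted p under 0.05 there were 175 genes in MMI8, 210 in MMI16, 579 in Ami25 and 431 in Ami50, and DESeq2 called 0, 0, 0 and 22. Kdr averaged 293 ± 46.2 CPM in MMI8, 252 ± 48.4 in MMI16, 259 ± 28.1 in Ami25 and 281 ± 34.3 in Ami50, against 261 ± 50.4 CPM in vehicle (SD, n = 6 each). Its interval for MMI16 against vehicle ran between -0.32 and 0.19 on the log2 scale, and for Ami50 between -0.12 and 0.38, neither of which reaches the change seen at PD16.

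Pecam1 at GD21 stood on the other side of vehicle. Its lowest, median and highest values were 69.0, 102 and 128 CPM in MMI8, 67.4, 94.5 and 155 CPM in MMI16, 96.8, 124 and 196 CPM in Ami25 and 93.3, 150.1 and 226 CPM in Ami50, against 63.3, 85.5 and 123 CPM in vehicle. The ranges overlapped. The log2 fold change was 0.62 in Ami25 (adjusted p = 0.473) and 0.83 in Ami50 (SE 0.22, adjusted p = 0.236), both not called by edgeR, and DESeq2 did call Pecam1 in Ami50 (0.83, adjusted p = 0.0314). Relative to Kdr in the same library, Pecam1 was higher than in vehicle by 0.60 in Ami25 and 0.65 in Ami50 (exact permutation, n = 6 each, adjusted p = 0.0468 and 0.024). Plvap to Pecam1 was lower by a log2 difference of -1.18 in Ami50 (exact permutation, adjusted p = 0.0445).

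The change with dosing was compared between the stages. For MMI16, the effect at PD16 minus the effect at GD21 was -1.80 for Kdr (SE 0.18, adjusted p = 3.91e-14 in edgeR's test) and -2.19 for Pecam1 (SE 0.25, adjusted p = 2.85e-11), 2 of 9 members (5.11% of all genes were called lower). For Ami50 it was -1.63 for Kdr (adjusted p = 1e-13), -3.15 for Pecam1 (adjusted p = 3.5e-19), -0.94 for Emcn (adjusted p = 3.63e-05) and -0.71 for Esam (adjusted p = 0.00825), 4 of 9 members (16.4% of all genes were called lower). Cldn5 (-1.13, adjusted p = 0.0801) and Plvap (-0.64, adjusted p = 0.2) were not called, so their falls in Ami50 at PD16 are not shown to differ from their values at GD21.

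Between vehicle libraries of the labelled stages, 3 of the 4 junction genes (Pecam1, Cldn5 and Esam) and Emcn were higher at PD16, and the receptors were not called. Cdh5, the other junction gene, was not tested and averaged 3.97 ± 2.80 CPM at PD16 (SD, n = 10) and 3.54 ± 2.17 CPM at GD21 (n = 6). Pecam1 averaged 199.7 ± 49.2 CPM at PD16 (SD, n = 10) and 88.2 ± 20.2 CPM at GD21 (n = 6), which is 1.04 higher on the log2 scale (adjusted p = 3.56e-07 in edgeR's test). Cldn5 averaged 34.5 ± 9.32 CPM at PD16 and 8.63 ± 3.17 CPM at GD21 (1.84, adjusted p = 4.84e-07), Emcn 91.3 ± 13.8 CPM at PD16 and 52.4 ± 5.98 CPM at GD21 (0.66, adjusted p = 1.57e-05), and Esam 62.2 ± 15.2 CPM at PD16 and 39.8 ± 6.92 CPM at GD21 (0.52, adjusted p = 0.00421). Of 9 members 4 were higher and none lower, where 24.4% of all genes were higher and 22.1% lower. Kdr was at 286 ± 35.6 CPM at PD16 and 261 ± 50.4 CPM at GD21, and its log2 interval ran between -0.23 and 0.23. Plvap (0.37, adjusted p = 0.202), Tek (0.39, adjusted p = 0.176), Flt1 (-0.41, adjusted p = 0.177) and Egfl7 (0.11, adjusted p = 0.673) were not called. Pecam1 to Kdr within a library was higher at PD16 by 1.02 (exact permutation, n = 10 and 6, adjusted p = 0.0015).

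The same stage comparison came out differently in the dosed groups. In MMI16, Cldn5 (1.95), Esam (0.67) and Emcn (0.51) were higher at PD16 than at GD21, as in vehicle, while Kdr (-1.80) and Pecam1 (-1.15) were lower, so that 3 of 9 members were higher (22.6% of all genes) and 2 lower (24.4% of all genes). In Ami50 only Kdr (-1.63) and Pecam1 (-2.11) were called, both lower, 2 of 9 members where 6.47% of all genes were lower. Cldn5 was there at 14.7 ± 8.42 CPM at PD16 (SD, n = 12) and 7.87 ± 4.34 CPM at GD21 (n = 6), with a log2 difference of 0.71 (adjusted p = 0.323 in edgeR's test), and Emcn at 45.5 ± 10.7 CPM at PD16 and 50.3 ± 10.4 CPM at GD21 (-0.28, adjusted p = 0.265). The PD16 Ami50 medians of Emcn (43.0 CPM), Cldn5 (12.6 CPM) and Plvap (11.5 CPM) lay inside the spans of single GD21 libraries, which were 31.0 to 69.2, 1.03 to 22.4 and 5.21 to 30.1 CPM. Kdr and Pecam1 lay outside them, with every PD16 Ami50 library below every GD21 library for both genes. The PD16 amitrole libraries also had the globin make-up of GD21, and the PD16 vehicle libraries did not. An effect of amitrole and a difference in tissue stage, in either group, therefore cannot be told apart for any member. This includes Kdr and Pecam1, whose amitrole comparisons used the same libraries.

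Ordered by mean, the 10 groups fell into an upper and a lower set for Kdr. The upper set was GD21 MMI8, PD16 vehicle, GD21 Ami50, GD21 vehicle, GD21 Ami25 and GD21 MMI16, all between 252 and 293 CPM with overlapping ranges. The lower set was PD16 MMI8, Ami50, Ami25 and MMI16, between 85.8 and 113 CPM, and its highest library, at 157 CPM, was below the lowest library of the upper set, at 189 CPM. Pecam1 had PD16 vehicle at the top, the 5 GD21 groups between 88.2 and 155 CPM, and the dosed PD16 groups between 38.5 and 53.4 CPM. Outside the members, the genes whose 10 group means of log2 CPM were most like those of Kdr, out of 4076 genes of at least 20 CPM, were Poldip2 (Pearson r = 0.994), Plpp3 (0.994) and Vdac1 (0.993). For Pecam1 they were Qrich1 (0.995), RGD1305713 (0.991) and Cwf19l1 (0.990), and for Plvap Gng2 (0.977), Rps15a (0.967) and Rpl7 (0.962). The 10 means share libraries, depth and the split into sets, and none of these genes is in the other endothelial gene lists used here. Absence from those lists does not show that endothelium lacks a gene.

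Other genes of endothelial pathways were mostly too low to test at PD16. Over all genes, 7.26% fell and 0.856% rose in MMI16, and 26.5% fell and 27.1% rose in Ami50. Of 14 growth factor and receptor genes 4 were tested, and none was called in MMI16. In Ami50, Aplnr, the apelin receptor, fell by 1.34 on the log2 scale (adjusted p = 1.92e-06 in edgeR's test) and Vegfb, a ligand of Flt1, fell by 0.44 (adjusted p = 0.0158). Of 22 further pan-endothelial genes 5 were tested. Podxl, a sialomucin of the luminal surface that kidney podocytes also carry, fell by 2.01 in MMI16 (adjusted p = 2.41e-08) and fell by 2.40 in Ami50 (adjusted p = 5.63e-11), and Gpihbp1, which holds lipoprotein lipase on capillaries, was higher by 1.12 in Ami50 (adjusted p = 1.89e-05).

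Of 16 endothelial transcription factor genes 6 were tested. The shares over all genes were again 7.26% lower and 0.856% higher in MMI16, and 26.5% lower and 27.1% higher in Ami50. Lmo2, Gata2 and Ets2, which blood cell precursors also use, fell in MMI16, with log2 fold changes of -2.09, -1.71 and -1.35 (adjusted p = 1.72e-13, 2.79e-09 and 1.93e-06 in edgeR's test), and in Ami50, with -2.77, -2.47 and -1.44 (adjusted p = 6e-18, 4.46e-14 and 4.71e-08). Hhex, a factor of early endothelium and of liver, was higher by 2.86 in Ami50 (adjusted p = 2.06e-12) and was not called in MMI16 (-0.65, adjusted p = 0.671). Of 8 Notch genes the 1 tested, the ligand Jag1, fell by 3.40 in MMI16 (adjusted p = 1.4e-21) and fell by 3.95 in Ami50 (adjusted p = 6.17e-25). Of 13 caveolar and junction partner genes 5 were tested, none was called in MMI16, and F11r, a junction adhesion molecule that epithelia share, was higher by 1.30 in Ami50 (adjusted p = 1.6e-08). Between vehicle libraries, Aplnr (1.73), Podxl (1.83), Jag1 (1.49), Vegfb (0.81), Ets1 (0.74), Gata2 (0.71) and Ets2 (0.65) were higher at PD16, while Hhex (-3.23), Vegfa (-1.26), S1pr1 (-1.19), Gpihbp1 (-0.97), F11r (-0.93), Eng (-0.83) and Vegfc (-0.78) were lower at PD16. Over all genes, 24.4% were higher and 22.1% lower in that comparison. Aplnr, Vegfb, Podxl, Jag1, Gata2 and Ets2 thus fell in Ami50 and were higher in PD16 vehicle. Hhex, Gpihbp1 and F11r went the opposite way in both. For these genes too, an effect of amitrole and a difference in tissue stage cannot be told apart.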

How the data were processed

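RNA was measured by BRB-seq in 83 libraries of 10 groups. The submitters' processing notes name the rn6 genome build and BWA 0.7.4.4. How reads were assigned to genes, whether strand was used and whether molecular barcodes were collapsed is not given in the sources used here. The deposited table holds raw read counts per gene symbol, per the labels, and 0 columns were left out. The 10 members and the other gene lists were chosen with earlier results of these data known.

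The tests ran in edgeR 4.0.16 under R 4.3.3, after TMM scaling and a filter on low counts (filterByExpr by group, minimum count 10, which kept 4906 genes at PD16, 6236 at GD21, 6287 over both). They were robust quasi-likelihood F tests with Benjamini-Hochberg adjustment, called under 0.05. Each stage's 5 groups entered 1 fit, and comparisons between stages used a fit of all 10 groups. CPM values are counts scaled to the library total. Within-library ratios used permutation tests in scipy 1.17.1. The tests were tested on simulated data. DESeq2 1.42.0 and other settings were alternatives. Over 331 pairs of libraries of the same group, the lowest chi-square per degree of freedom was 1.565, so none was a copy.

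All 10 members were named whatever their result, with up to 3 called genes a direction of each further list (lowest adjusted p) in the MMI16, Ami50 and vehicle stage comparisons, and the 3 genes most like Kdr, Pecam1, Cdh5 and Plvap; Cdh5 was too low to be compared. No genome was used, and promoter sequences are from RefSeq, GRCr8.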

Additional observations from a re-analysis of the deposited data

Results flagged for a closer look

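In 8 of 80 sets of a gene and a group of 6 to 10 libraries, 1 library stood far from the others of its group. The rule's chance rate of about 1 in 20 holds for normally distributed values. Many values here rest on few counts, so the observed share cannot be set against that rate. PD16 Ami25 and Ami50, with 11 and 12 libraries, were not examined by this rule. Flt1 was at 38.7 CPM in PD16 MMI8 library 26 and at 44.8 CPM in GD21 MMI16 library 47, each the highest of its group. GD21 MMI16 library 47 was also the highest for Cldn5, at 22.4 CPM. Tek was at 37.0 CPM in PD16 MMI16 library 29 (highest) and at 6.66 CPM in GD21 Ami50 library 89 (lowest). Plvap was at 69.2 CPM in PD16 MMI16 library 10 (highest, 14 counts) and Esam in the same library at 24.7 CPM (lowest, 5 counts); its total of 202270 counts was the lowest of all libraries. Plvap was at 5.91 CPM, from 3 counts, in GD21 MMI8 library 68 (lowest).

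The effect of dosing differed between PD16 and GD21 by the interaction test of edgeR for 6 values. For MMI16 the log2 difference of effects was -1.80 for Kdr and -2.19 for Pecam1. For Ami50 it was -1.63 for Kdr, -3.15 for Pecam1, -0.71 for Esam and -0.94 for Emcn. The tissue and stage labels go against the transcripts named in the report, and their part in these differences was not tested.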

How the results depend on the processing

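No paired analysis was possible because the library numbers are unique to a sample and pair no libraries across groups. Values for single genes were counted only where the gene was called under at least 1 setting of the comparison. Of these, 420 kept their direction and their side of the threshold across 11 other settings, 4 gained and 4 lost a call, and none reversed. Values called under no setting were left out, and that choice made a reversal unlikely. Kdr and Pecam1 at PD16 stayed called in all 4 dosed groups, Emcn and Cldn5 in both amitrole groups, and Plvap in Ami25. Plvap in Ami50 stayed called wherever it was tested, but with only the compared libraries fitted it failed the filter on low counts, which left 6 members tested and 4 called. With DESeq2, 1 member (Pecam1) was called at GD21 in Ami50, where edgeR called 0. For MMI16 against MMI8, 0 members were called with no filter on low counts, with only the compared libraries fitted, or without the 15 libraries where Alb, a liver transcript, reached 200 CPM (Kdr adjusted p = 0.0790, 0.179 and 0.101). Esam fell past the threshold in PD16 Ami25 without the least typical library of each group (-0.32, adjusted p = 0.0492), and its Ami50 difference between stages was lost without the Alb libraries (-0.67, adjusted p = 0.0569). Of the ratios, with 0.25 added to counts Pecam1 to Kdr in GD21 Ami25 (0.60) and Cdh5 to Kdr in PD16 Ami50 (1.28) were no longer past the threshold; with 1 added, Cdh5 to Kdr in PD16 MMI8 (1.21) and Plvap to Pecam1 in PD16 Ami25 (1.10) and GD21 Ami25 (-0.91) were past it, and Cdh5 to Kdr between vehicle stages turned to 0.12. Without the Alb libraries, Pecam1 to Kdr in GD21 Ami25 (0.88) and Ami50 (0.74) and Plvap to Pecam1 in GD21 Ami50 (-1.0) were no longer past it, and Plvap to Kdr in GD21 MMI16 turned to 0.33; those settings leave fewer libraries or few counts, and the cause was not tested. Depth limits Cdh5, Flt1, Tek, Cldn5, Plvap and Egfl7 most.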
